A study of Mus musculus with 6 samples.

Results

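Glutamine uptake and glutaminolysis were followed through 9 genes of the 21448 in the deposited table: the plasma membrane carriers Slc1a5, Slc38a2, Slc7a5 and Slc3a2, and the enzymes Gls2, Glud1, Glul, Got1 and Got2. They were taken by symbol and chosen for what their products do, with earlier results of these data known. All 9 passed the filter on low values (a mean of at least 1 over the 6 libraries, which kept 10533 genes). RNA was measured in primary lymphoma B cells, in 3 libraries labelled PRDM15 knockout (KO) and 3 labelled wild type (WT). All 6 carry the E mu-Myc transgene, in which an immunoglobulin heavy chain enhancer drives Myc in B cells. Per the labels' protocols, lymphoma cells grew with IL7 and were given 4-hydroxytamoxifen (OHT, 50 nM) to delete Prdm15, or ethanol as its control, for 24 hours, and were collected 3 days later. The titles give only group and replicate number, so it is inferred that the KO libraries are those that received OHT. An effect of OHT itself and one of the deletion cannot be told apart. The labels do not name the allele or the Cre, and the wild type label does not say whether those cells carry the same allele.

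PRDM15 is a zinc finger protein with a PR domain. The series' title ties it to the metabolism of B cells, and the comparison asks whether genes of glutamine use are among those that differ. Glutamine is taken up by carriers of the cell membrane, and glutaminase inside mitochondria removes its amide group to leave glutamate. Glutamate dehydrogenase or a transaminase then turns glutamate into 2-oxoglutarate, which feeds the citric acid cycle, while glutamine synthetase makes glutamine from glutamate. In cells driven by MYC this route is known as a main source of carbon and nitrogen. The medium was rich in it: per the labels' protocols it combined DMEM holding 4 mM L-glutamine with IMDM, and a further 2 mM L-glutamine, 0.1 mM asparagine and non-essential amino acids at 100 uM each, glutamate and aspartate included. The same text stands for all 6 libraries.

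Promoter sequence was at hand for 6 of the 9 genes (Slc38a2, Slc3a2, Glud1, Glul, Got1 and Got2), as the 250 bases before the RefSeq start on GRCm38.p6. The windows of 2 of them are shown 5′ to 3′ along the gene: that of Slc38a2, the gene with the highest level per exon length, at chr15:96699729-96699978 on the minus strand, and that of Got1, the one that holds a searched motif, at chr19:43524606-43524855 on the minus strand. Capitals mark that motif.
Slc38a2: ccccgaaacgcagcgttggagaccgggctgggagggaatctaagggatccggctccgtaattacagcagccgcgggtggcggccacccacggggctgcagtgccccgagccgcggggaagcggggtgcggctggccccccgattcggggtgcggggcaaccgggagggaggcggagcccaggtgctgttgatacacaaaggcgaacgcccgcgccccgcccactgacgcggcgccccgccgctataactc
Got1: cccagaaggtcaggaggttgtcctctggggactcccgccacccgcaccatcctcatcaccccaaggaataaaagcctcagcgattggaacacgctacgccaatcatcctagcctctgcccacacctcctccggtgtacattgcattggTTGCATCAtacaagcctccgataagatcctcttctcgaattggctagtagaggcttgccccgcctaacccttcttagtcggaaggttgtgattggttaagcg
Both strands were searched for CACGTG, the E-box that MYC and its partner MAX are known to bind, and for TGATGNAA, the element that ATF4 binds with a C/EBP partner when amino acids run short. The E-box was in 0 of the 6 windows, against 6.02% of 32851 mouse promoters of the same length. The second element was in 1 of 6, against 3.45% of those promoters, and in Got1 it reads TTGCATCA on the strand shown, ending 94 bases before the start. A match is a description of the letters, and a window without one says nothing of what the factor does elsewhere at the gene.

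The libraries held 28852951, 40119748 and 41204788 reads assigned to genes in KO replicates 1, 2 and 3, and 38581112, 40558008 and 47255421 in WT replicates 1, 2 and 3. Each member other than Gls2 rested on 3172 to 39229 reads per library, and Gls2 on 168 to 473. All values below are reads per unit of an effective library size, on the counts-per-1000000 scale (CPM), and a log2 change is KO minus WT of log2(value + 1). Prdm15 (ENSMUSG00000014039) was at 40.2, 40.9 and 39.2 in KO libraries and at 29.2, 47.3 and 41.3 in WT libraries, a log2 change of 0.058 (paired limma adjusted p = 0.834). Reads summed over the gene cannot tell whether an exon was lost, so directions rest on the labels. B cell markers were present, 10 of 10 at a mean of at least 1, with sums of 3427 to 4776 in KO libraries and 3920 to 5481 in WT libraries. The 20 myeloid markers summed to 239.6, 2967 and 1589 in KO replicates 1, 2 and 3 and to 277.8, 358.9 and 289.8 in WT replicates 1, 2 and 3. Ctss made up most of the sum in replicate 1, at 190.2 in KO and 183.9 in WT. In pairs 1, 2 and 3, 6, 20 and 20 of these 20 markers were higher in KO. Their part in the results was not tested, and all 9 genes are therefore also given by library or pair. Of T and NK cell markers 3 of 9 reached a mean of 1 (sums of 15.1 to 70.0 in KO and 1.40 to 37.7 in WT libraries). Cd2 made up most of these sums in replicates 1 and 3, at 61.9 and 31.7 in KO and 23.3 and 36.6 in WT libraries. Higher in KO were 8, 9 and 7 of the 9 in pairs 1, 2 and 3, with Cd8a at 5.14 in KO replicate 2 beside 0.175 in WT replicate 2. Of stromal and endothelial markers 1 of 10 reached that mean, Pecam1 (list sums of 58.3 to 102.8 in KO and 52.5 to 63.4 in WT libraries). Of erythroid markers 0 of 6 did (0.401 to 0.865 in KO and 0.454 to 1.504 in WT libraries). In bulk RNA, fewer cells of a type and less RNA per cell cannot be told apart.

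None of the 9 genes was called in KO against WT libraries by limma or edgeR, and DESeq2 called 1 of them when libraries were paired. Of the 4 carriers, Slc1a5, Slc38a2 and Slc7a5 were lower in all 3 pairs of libraries with the same replicate number, with KO and WT values that did not overlap, and Slc3a2 was higher in all 3 pairs. Of the enzymes, Glud1, Glul, Got1 and Got2 had KO levels between 1.005 and 1.033 of their WT levels, as taken from the log2 changes. Gls2 (log2 change -0.39) was scarce and varied in the WT group. Limma tests each gene with an error shared across genes. Without pairing it called 0 of the 9, with 0 at an unadjusted p under 0.05. Over all tested genes (the background) it called 0.00949%, with 428 of 10533 at that unadjusted level. With the replicate number as a block it called 0 of 9, with 2 at an unadjusted p under 0.05 (background, 0.873% called and 21% at that unadjusted level). EdgeR on the recovered reads called 0 of 9 without the pairs (background 0%) and 0 with them (0.37%). In each, 1 of the 9 was at an unadjusted p under 0.05 (background, 582 of 10533 without the pairs and 2174 with them). DESeq2 called 0 without the pairs (1.04%) and 1, Slc1a5, with them (7.01%). Lower and without overlap were 3 of 9 genes (background 6.29%), higher and without overlap 0 of 9 (3.21%). Lower in all 3 pairs were 3 of 9 (29.9%), and higher in all 3 pairs was 1, Slc3a2 (16.7%). The median log2 change of the 9 was 0.0075, beside -0.028 over all tested genes, and the median size of a change was 0.078 beside 0.113. Groups of 3 against 3 cannot give an exact permutation p below 0.1, and all p-values measure the spread between these libraries, which the series calls biological replicates.

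**Figure D1:**
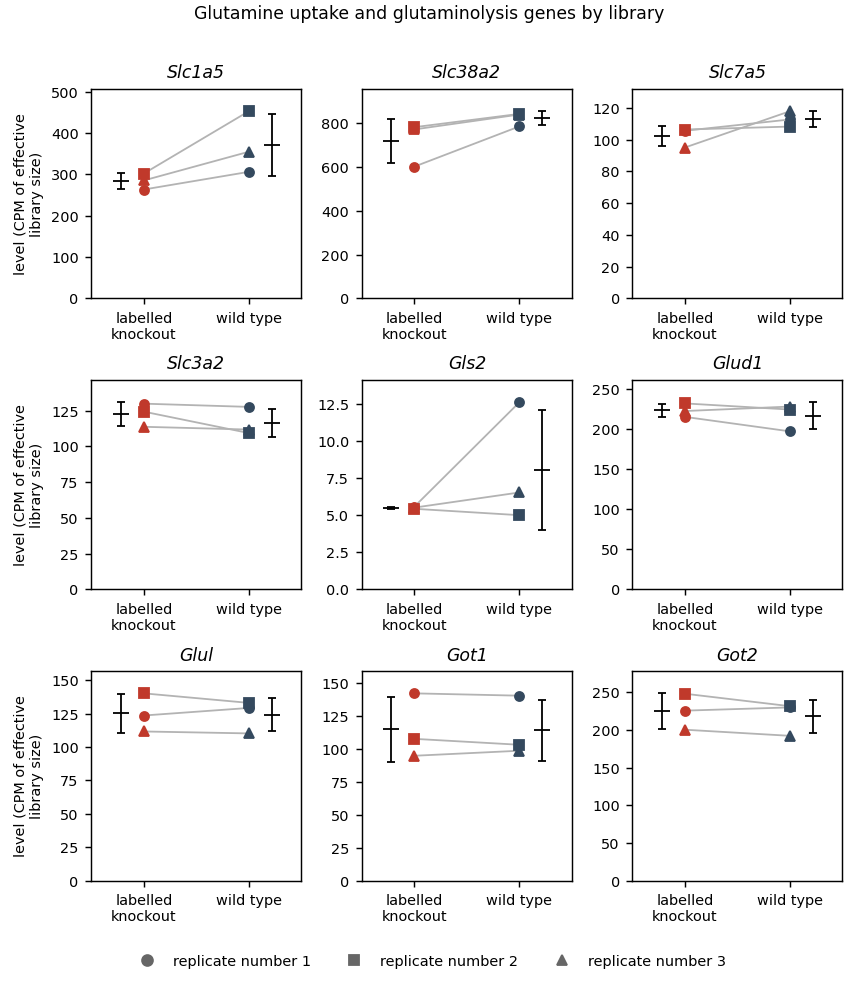
Level of each of the 9 genes in CPM (vertical axes from 0) in KO libraries (left) and WT libraries (right), with 1 symbol per replicate number, lines joining equal numbers and black bars giving each mean ± SD (n = 3). Slc1a5 lies between 263.5 and 302.2 in KO libraries, under all WT libraries, while the lines of Glul, Got1 and Got2 run nearly flat.

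Slc1a5 (ENSMUSG00000001918, chromosome 7) encodes ASCT2, a sodium-dependent exchanger that brings glutamine in against other neutral amino acids. It was at 263.5, 302.2 and 285.5 CPM in KO replicates 1, 2 and 3, and at 306.3, 453.1 and 355.0 CPM in WT replicates 1, 2 and 3. Every KO library lay under every WT library, with WT replicate 2 far above the rest. The means were 283.8 ± 19.4 in KO and 371.5 ± 74.8 CPM in WT libraries (SD, n = 3 each). Taken from the log2 change, the KO level was 0.773 of WT. The log2 change was -0.37, and -0.22, -0.58 and -0.31 in pairs 1, 2 and 3. It had the smallest p of the 9. Its 95% interval ran from -0.75 to 0.0046 without pairing (limma adjusted p = 0.9998) and from -0.58 to -0.16 with the pairs (adjusted p = 0.129). EdgeR with the pairs gave an adjusted p of 0.162 and DESeq2 with the pairs 0.0104, while DESeq2 without them gave 0.379. By DESeq2 with the pairs the log2 change was -0.35 over all libraries. The call was lost without pair 2 (-0.22, adjusted p = 0.433) and, with a change no smaller, without pair 3 (-0.38, adjusted p = 0.113). It held without pair 1 (-0.43, adjusted p = 0.000643), when limma with the pairs also called it (-0.45, adjusted p = 0.0156, with 840 of all genes called) and edgeR did not (adjusted p = 0.0937). The part of myeloid transcripts in the change of Slc1a5 was not tested. Set against all WT libraries, KO replicate 1 alone gave -0.47, beside -0.22 within pair 1. The first value includes the difference between replicate numbers, since replicate 1 was the lowest pair. Without WT replicate 2 the unpaired change was -0.22, and leaving out 1 library or pair gave -0.50 to -0.22 over all tools.

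Slc38a2 (ENSMUSG00000022462, chromosome 15) encodes SNAT2, which carries glutamine and other small neutral amino acids in together with sodium and is known to be induced when amino acids run short. Its level was 601.5, 781.5 and 771.3 CPM in KO replicates 1, 2 and 3, and 785.0, 842.2 and 839.4 CPM in WT replicates 1, 2 and 3. The groups did not overlap, but KO replicate 2 lay just under WT replicate 1. Means were 718.1 ± 101.1 in KO and 822.2 ± 32.2 CPM in WT libraries (SD, n = 3 each). Taken from the log2 change, the KO level was 0.868 of WT. The log2 change of -0.20 came mostly from pair 1, at -0.38, beside -0.11 and -0.12 in pairs 2 and 3. With the pairs its interval ran from -0.40 to -0.011 (limma adjusted p = 0.225), and neither edgeR (adjusted p = 0.244) nor DESeq2 (0.140) called it. Leaving out 1 library or pair gave -0.27 to -0.082, the smallest without KO replicate 1, while KO replicate 1 alone against all WT libraries gave -0.45.

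Slc7a5 and Slc3a2 encode the partners of a single exchanger: LAT1, which trades internal glutamine for leucine and other large neutral amino acids, and the CD98 heavy chain, which takes LAT1 and several related carriers to the membrane. Slc7a5 (ENSMUSG00000040010, chromosome 8) was at 105.5, 106.3 and 94.96 CPM in KO replicates 1, 2 and 3, and at 112.6, 108.1 and 117.8 CPM in WT replicates 1, 2 and 3. The gap between the groups was small, with KO replicate 2 next to WT replicate 2. Means of 102.3 ± 6.33 in KO and 112.9 ± 4.84 CPM in WT libraries (SD, n = 3 each) gave a log2 change of -0.14, and -0.093, -0.025 and -0.31 by pair (95% interval with the pairs -0.32 to 0.039, limma adjusted p = 0.318). It was -0.087 with equal totals and -0.059 without pair 3 by limma (-0.033 by edgeR). Slc3a2 (ENSMUSG00000010095, chromosome 19) was at 129.9, 124.3 and 113.7 CPM in KO replicates 1, 2 and 3, and at 127.6, 109.3 and 111.8 CPM in WT replicates 1, 2 and 3. Its groups overlapped, though each KO library was above its WT partner. The log2 change was 0.078, with an interval of -0.068 to 0.22 (paired limma adjusted p = 0.472). It was 0.13 with equal totals, and 0.025 to 0.15 with 1 library or pair left out.

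The mean differences of these partners had opposite signs, and neither passed the test. Taken after their values were seen, the log2 ratio of Slc7a5 over Slc3a2 was -0.30, -0.23 and -0.26 in KO libraries, and -0.18, -0.016 and 0.076 in WT libraries. All KO ratios lay under all WT ratios, a difference of -0.22 given as a description with no test, since the pair was picked for its opposite signs. A value per library cannot show how much of each protein reached the membrane.

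**Figure D2:**
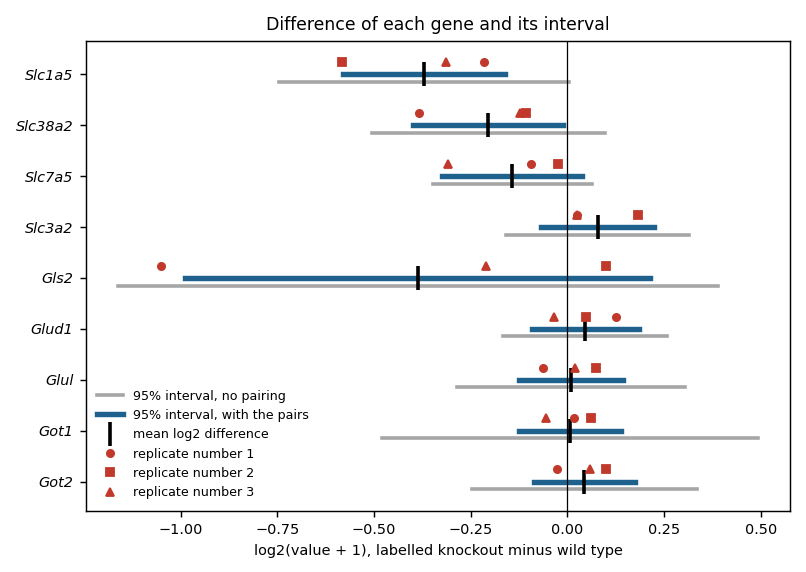
Log2 difference of each gene (horizontal axis, log2(value + 1), KO minus WT), with symbols for the pairs of equal replicate number, a bar for the mean, and 95% limma intervals with the pairs (blue) and without (grey). The paired intervals of Slc1a5 and Slc38a2 lie below 0, at -0.58 to -0.16 and -0.40 to -0.011, those of the other 7 genes cross 0, and the unpaired interval crosses 0 in all 9.

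Gls2 (ENSMUSG00000044005, chromosome 10) encodes the liver-type glutaminase, known in other cells as a target of p53. It stood at 5.59, 5.44 and 5.52 CPM in KO replicates 1, 2 and 3, and at 12.6, 5.01 and 6.55 CPM in WT replicates 1, 2 and 3. The KO libraries were nearly alike, and WT replicate 1 stood apart from the other WT libraries, with the groups overlapping. The log2 change was -0.39 over all libraries, -1.05, 0.10 and -0.21 by pair, and -0.047 without WT replicate 1. Its interval, -0.99 to 0.21 with the pairs, was the widest of the 9 (limma adjusted p = 0.392), and a KO level between 0.504 and 1.16 of WT lay within it. In the GENCODE M21 annotation its exons overlap Spryd4 on the opposite strand. The strand setting of the counting is not given in the sources used here, so reads of the pair may not be separated.

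Glud1 (ENSMUSG00000021794, chromosome 14) encodes mitochondrial glutamate dehydrogenase, which releases the amino group of glutamate as ammonia. Its level was 215.7, 232.5 and 223.0 CPM in KO replicates 1, 2 and 3, and 197.6, 224.8 and 228.6 CPM in WT replicates 1, 2 and 3. The groups overlapped, and the pairs did not point in a common direction (0.13, 0.048 and -0.036). A log2 change of 0.046 had an interval of -0.092 to 0.18 (paired limma adjusted p = 0.661), so KO levels from 0.938 to 1.14 of WT lay within it.

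Glul (ENSMUSG00000026473, chromosome 1) encodes glutamine synthetase, which makes glutamine from glutamate and ammonia and works against glutaminolysis. Its values were 123.5, 140.1 and 111.6 CPM in KO replicates 1, 2 and 3, and 129.2, 133.0 and 110.1 CPM in WT replicates 1, 2 and 3. Each KO library followed its WT partner, with replicate 2 the highest and replicate 3 the lowest in both groups. The log2 change was 0.0098, with an interval of -0.13 to 0.14 (paired limma adjusted p = 0.932). In the same annotation its exons overlap Mir8114 on the same strand and Teddm2 on the opposite strand.

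Got1 and Got2 encode the cytosolic and the mitochondrial aspartate aminotransferase, which turn glutamate and oxaloacetate into 2-oxoglutarate and aspartate and together carry electrons across the mitochondrial membrane in the malate-aspartate shuttle. Got1 (ENSMUSG00000025190, chromosome 19) was at 142.0, 107.5 and 94.7 CPM in KO replicates 1, 2 and 3, and at 140.2, 103.0 and 98.5 CPM in WT replicates 1, 2 and 3. Replicate 1 was the highest in both groups, and the pairs differed by far more than the groups did. The log2 change was 0.0075, with an interval of -0.12 to 0.14 with the pairs (limma adjusted p = 0.948) and of -0.48 to 0.49 without them. Got2 (ENSMUSG00000031672, chromosome 8) was at 225.8, 248.2 and 200.4 CPM in KO replicates 1, 2 and 3, and at 230.1, 231.7 and 192.3 CPM in WT replicates 1, 2 and 3. Its groups overlapped too, and replicate 3 was the lowest in both. A log2 change of 0.044 had an interval of -0.087 to 0.18 (paired limma adjusted p = 0.661). Gm45760 overlaps its exons on the opposite strand, and the processed pseudogenes Got2-ps1 and Glud-ps are annotated but are not listed in the table used here.

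For 8 of the 9 genes the range of the pair means on the log2 scale was larger than the difference between KO and WT. A range of means and a single difference are unlike measures, and the share over all tested genes was not computed. In Got1 that range was 0.54 beside a group difference of 0.0075, and in Gls2 0.61 beside 0.39. Slc1a5 had 0.38 beside 0.37 and Slc38a2 0.24 beside 0.20, so for both the spans were of like size. The exception was Slc7a5, with a range of 0.043 beside 0.14. The labels do not say what the replicate number stands for.

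Per kilobase of exon the carriers Slc38a2 and Slc1a5 had the highest levels of the 9, at 81.3 ± 11.4 and 68.0 ± 4.65 CPM per kb in KO libraries and at 93.0 ± 3.65 and 89.0 ± 17.9 CPM per kb in WT libraries (SD, n = 3 each). Over all 6 libraries the ranges of these carriers overlapped. Below them came Glud1, at 53.1 ± 2.00 in KO and 51.5 ± 4.02 CPM per kb in WT libraries. The range of Slc1a5, 63.2 to 108.6 CPM per kb, did not meet that of Glud1, 46.9 to 55.2. Got2, Got1, Glul, Slc3a2 and Slc7a5 followed, and each range overlapped its neighbour's. Got1 was at 45.2 ± 9.65 in KO and 44.9 ± 9.03 CPM per kb in WT libraries, and Slc7a5, the lowest of this group, at 27.6 ± 1.71 and 30.4 ± 1.31 CPM per kb. Gls2 stood far below all others, at 1.59 ± 0.0207 in KO and 2.32 ± 1.16 CPM per kb in WT libraries. Exon lengths came from GENCODE M21 on GRCm38, while the reads were aligned to mm9 per the submitters' processing notes.

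**Figure D3:**
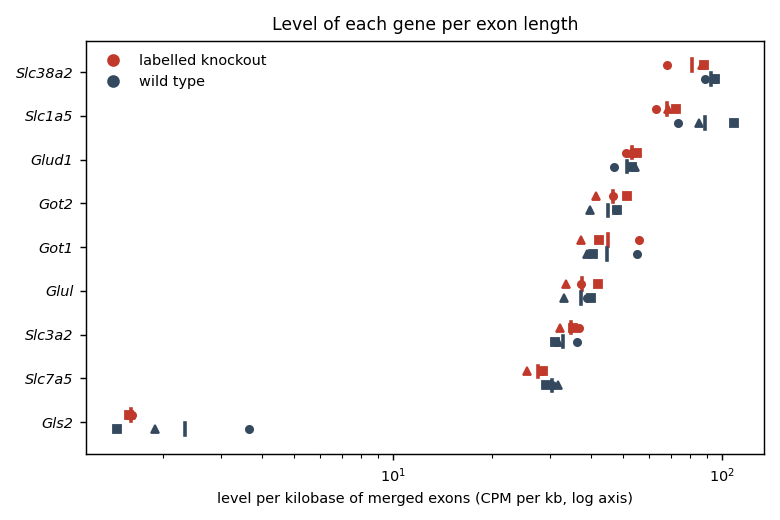
Level per kilobase of merged exons (horizontal log axis, CPM per kb) of the 9 genes, with KO libraries above WT libraries for each gene, 1 symbol per replicate number (circle 1, square 2, triangle 3) and a bar for the group mean. Slc38a2 and Slc1a5 lead, 6 genes lie between 25.6 and 55.9, and Gls2 lies at 1.44 to 3.64.

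The genes whose log values ran most like those of Slc1a5 over the 6 libraries were Iqgap3 (Pearson r = 0.991), Bfar (0.990) and Usf3 (0.989). For Slc38a2 they were Hddc3 (0.9996), Commd1 (0.994) and Ppp1r7 (0.990). Iqgap3, a scaffold protein of the cytoskeleton, was at 22.4, 24.0 and 23.2 CPM in KO replicates 1, 2 and 3, and at 25.2, 31.9 and 26.5 CPM in WT replicates 1, 2 and 3. As in Slc1a5, the KO libraries were the lowest and WT replicate 2 was the highest. These were picked as the best of 10533 genes over 6 libraries that share depth and replicate number, so they are descriptions only.

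Around the 9 genes, 72 related genes were taken in 5 groups, and 57 of them passed the filter on low values. The groups also hold regulators and carriers of other amino acids, such as Slc43a2, so not all act on glutamine itself. None was called by limma without the pairs, with 3 of 57 at an unadjusted p under 0.05, beside 428 of the 10533 genes tested. With the pairs none was called either, and 21 of 57 were at that level, beside 2213 of 10533, or 21% of all tested genes. EdgeR called none in either form. DESeq2 called 0 without the pairs and 9 of 57 with them, 6 higher and 3 lower in KO libraries (background, 7.01% of all tested genes). Without pair 1, limma with the pairs called 840 of the 10533 genes tested. Among the genes named below, Slc43a2, Slc7a7, Gclm and Slc25a12 were called as higher, and Gpt2, Myc and Mycn as lower. Their limma adjusted p ran from 0.000524 to 0.0460, and calls among all 57 were not counted. That fit rests on KO replicates 2 and 3. Their myeloid markers summed to 2967 and 1589, beside 358.9 and 289.8 in their WT partners. The part of myeloid transcripts in these calls was not tested. The median log2 change over the 57 was 0.0058, beside -0.028 over all tested genes. By group the medians were 0.042 for 13 carriers and -0.0076 for 17 enzymes of glutamate metabolism and linked steps, Ogdh, Dlst and Dld included. They were -0.012 for 10 enzymes that use glutamine or its amide and 0.022 for 6 genes of the malate-aspartate shuttle and malic enzymes. For 11 regulators the median was -0.044.

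**Figure D4:**
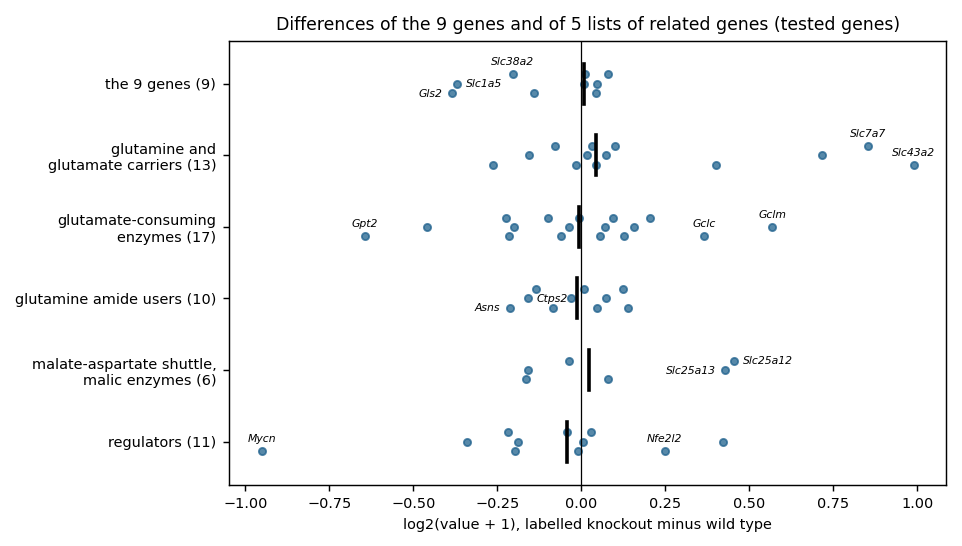
Log2 difference, KO minus WT (horizontal axis, log2(value + 1)), of each tested gene among the 9 and in the 5 lists of related genes, 1 point per gene with a black bar at the list's median; vertical offsets within a list carry no value. All medians lie between -0.044 and 0.042, and the points farthest from 0 are Slc43a2 (0.99), Mycn (-0.95), Slc7a7 (0.85) and, among enzymes, Gpt2 (-0.65).

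Among the carriers, Slc43a2, which encodes the leucine and methionine carrier LAT4, was at 32.4, 48.0 and 48.3 CPM in KO replicates 1, 2 and 3, and at 18.0, 16.2 and 30.6 CPM in WT replicates 1, 2 and 3. The KO libraries were all above the WT libraries, by a log2 change of 0.99 (paired adjusted p of 0.0862 by limma, 0.0995 by edgeR and 7.1e-06 by DESeq2). By pair the log2 change was 0.82, 1.51 and 0.64 in pairs 1, 2 and 3; the part of myeloid transcripts in it was not tested. Slc7a7, a subunit of an exchanger of cationic for neutral amino acids, was low, at 3.89, 1.66 and 2.13 CPM in KO replicates 1, 2 and 3 and 2.16, 0.426 and 0.535 CPM in WT replicates 1, 2 and 3 (log2 change 0.85, paired adjusted p of 0.116 by limma, 0.135 by edgeR and 0.0238 by DESeq2). Slc38a1, or SNAT1, the carrier with the highest level among these 13, was at 319.0 ± 24.9 in KO and 316.4 ± 42.5 CPM in WT libraries (log2 change 0.018, paired limma adjusted p = 0.888). Slc38a10, of the same family, was at 124.7 ± 5.09 in KO and 139.0 ± 5.62 CPM in WT libraries without overlap (-0.16, adjusted p = 0.233).

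Enzymes of glutamate metabolism and linked steps lay on both sides of 0. Gpt2, the mitochondrial alanine aminotransferase, which like GOT2 passes the amino group of glutamate on, was at 9.21, 13.8 and 7.92 CPM in KO replicates 1, 2 and 3, and at 16.6, 20.4 and 12.7 CPM in WT replicates 1, 2 and 3. Each KO library was under its partner, although the groups overlapped (log2 change -0.65, paired adjusted p of 0.0569 by limma, 0.0775 by edgeR and 0.00222 by DESeq2). Psat1, the transaminase of serine synthesis, was at 308.8 ± 15.3 in KO and 294.0 ± 10.5 CPM in WT libraries (0.070, limma paired adjusted p = 0.532). Bcat1, the cytosolic transaminase of branched-chain amino acids, was at 268.8 ± 69.3 in KO and 267.8 ± 51.9 CPM in WT libraries, with a log2 change of -0.0076 that was above 0 with equal totals (0.048), with quantile normalization (0.0036) and by edgeR and DESeq2. A ligase joins glutamate to cysteine for glutathione. Its modifier subunit Gclm was at 63.3, 48.8 and 43.3 CPM in KO replicates 1, 2 and 3, and at 34.2, 33.3 and 35.0 CPM in WT replicates 1, 2 and 3. All its KO libraries were above all WT libraries, replicate 1 the most (log2 change 0.57, paired adjusted p of 0.115 by limma, 0.130 by edgeR and 0.00201 by DESeq2). The catalytic subunit Gclc, named after its values were seen because DESeq2 with the pairs called it, overlapped between the groups, at 226.5, 120.3 and 224.3 CPM in KO replicates 1, 2 and 3 and 154.5, 119.7 and 154.3 CPM in WT replicates 1, 2 and 3 (0.36, paired adjusted p of 0.197 by limma and 0.0499 by DESeq2).

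**Figure D5:**
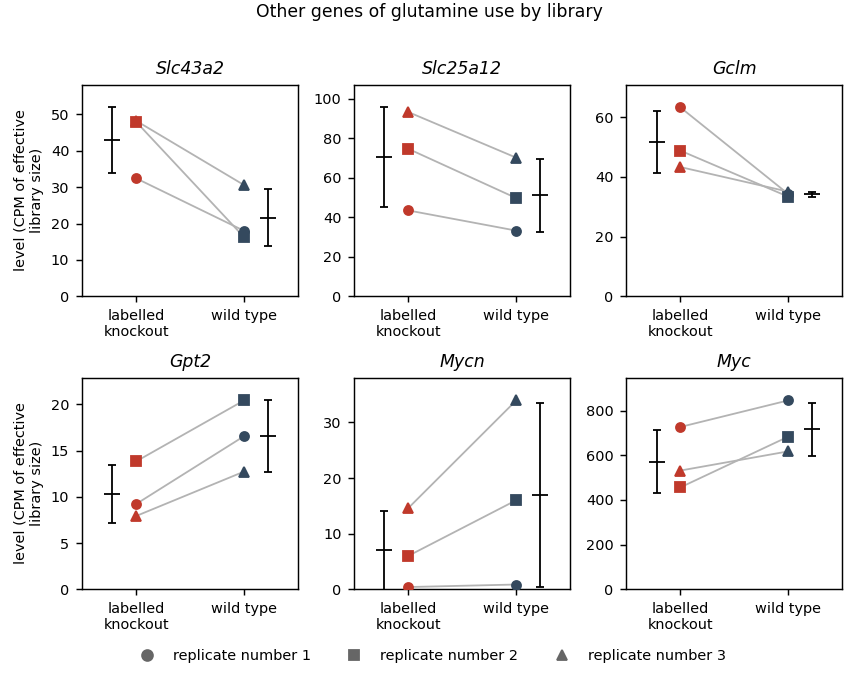
Level of 6 genes from the lists of related genes in CPM (vertical axes from 0) in KO libraries (left) and WT libraries (right), 1 symbol per replicate number with lines joining equal numbers and black bars giving each mean ± SD (n = 3). Not all of them act on glutamine itself. Slc43a2, Slc25a12 and Gclm are higher, and Gpt2, Mycn and Myc lower, in each KO library than in its WT partner, and the groups do not overlap in Slc43a2 and Gclm.

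Of the 10 enzymes that use glutamine or its amide, as in asparagine and nucleotide synthesis, none was called by any of the 3 tools over the 6 libraries. Asns, asparagine synthetase, was at 63.4, 123.6 and 57.5 CPM in KO replicates 1, 2 and 3, and at 75.3, 139.0 and 67.5 CPM in WT replicates 1, 2 and 3. Replicate 2 was the highest in both groups, and each KO library was below its partner (log2 change -0.21, paired limma adjusted p = 0.137). The purine enzymes Pfas and Ppat had log2 changes of -0.032 and 0.048, and the CTP synthase Ctps2 one of -0.16 (limma paired adjusted p of 0.734, 0.610 and 0.235).

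In the shuttle that Got1 and Got2 belong to, the aspartate-glutamate carrier Slc25a12 was at 43.5, 74.7 and 93.3 CPM in KO replicates 1, 2 and 3, and at 33.2, 49.7 and 70.2 CPM in WT replicates 1, 2 and 3. Every KO library was above its partner, by a log2 change of 0.45 over all (paired adjusted p of 0.0575 by limma, 0.0574 by edgeR and 9.5e-06 by DESeq2). Limma with the pairs called it under quantile normalization and with equal totals (adjusted p of 0.0412 and 0.0448). Set against all WT libraries, KO replicate 1 alone gave -0.16, since replicate 1 was low in both groups. The related Slc25a13 was at 8.15, 24.8 and 9.27 CPM in KO replicates 1, 2 and 3, and at 6.70, 15.4 and 6.89 CPM in WT replicates 1, 2 and 3 (0.43, limma paired adjusted p = 0.149). Cytosolic malate dehydrogenase, Mdh1, was at 249.7 ± 21.01 in KO and 279.5 ± 6.50 CPM in WT libraries without overlap (-0.16, adjusted p = 0.210), and Me2, a mitochondrial malic enzyme, had a log2 change of -0.036.

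Of the regulators, Myc, known to raise ASCT2 in other cells, was at 726.8, 456.1 and 531.6 CPM in KO replicates 1, 2 and 3, and at 846.0, 683.7 and 617.7 CPM in WT replicates 1, 2 and 3. Each KO library was below its partner, with overlap between the groups (log2 change -0.34, paired adjusted p of 0.153 by limma, 0.195 by edgeR and 0.0299 by DESeq2). The table gives 1 value for Myc, in which reads of the transgene and of the endogenous gene are not separated. Mycn, its relative, was at 0.399, 5.997 and 14.6 CPM in KO replicates 1, 2 and 3, and at 0.855, 16.02 and 33.98 CPM in WT replicates 1, 2 and 3. It was lower in every pair, while its level varied far more between the replicate numbers than between the groups (-0.95, paired adjusted p of 0.116 by limma, 0.0509 by edgeR and 9.99e-07 by DESeq2). Nfe2l2, or NRF2, which is known to drive both glutamate-cysteine ligase genes, was at 59.1, 97.5 and 97.2 CPM in KO replicates 1, 2 and 3, and at 49.4, 76.3 and 88.3 CPM in WT replicates 1, 2 and 3 (0.25, paired adjusted p of 0.144 by limma, 0.135 by edgeR and 0.0285 by DESeq2). KO replicate 1 alone against all WT libraries gave 0.034 in Myc and -0.23 in Nfe2l2, opposite in sign to their values over all. Within pair 1 the changes kept the sign over all, at -0.22 in Myc and 0.26 in Nfe2l2. In both groups replicate 1 was the highest in Myc and the lowest in Nfe2l2. Ctnnb1, encoding beta-catenin, had a log2 change of 0.029, and Atf4, named outside the rule for its place in the motif search, was at 309.1 CPM in KO and 311.3 CPM in WT libraries on average (-0.011).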

How the data were processed

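RNA-seq was run on 6 libraries of lymphoma B cells, 3 labelled PRDM15 knockout and 3 labelled wild type, grouped by their titles. Total RNA was column-purified and made into directional libraries, per the labels' protocols. Tools named without role or order are STAR 2.4.2a, HTSeq, CASAVA and edgeR, with the build mm9, per the submitters' processing notes; annotation and strand setting of the counting: not given in the sources used here. The deposited signal values are titled FPKM by the authors, but in each library they were whole multiples of a single step, 100% of them within 0.01 reads, and so are reads over an effective library size of 0.970 to 1.04 times the total. That makes them CPM, not divided by length. The table names no feature other than genes.

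Values were tested with limma 3.58.1 (R 4.3.3) as log2(value + 1), trended prior, two-sided, with Benjamini-Hochberg adjustment over 10533 genes with a mean of at least 1 and a threshold of 0.05. EdgeR 4.0.16 (quasi-likelihood) and DESeq2 1.42.0 on the recovered reads, other pseudocounts, filters and scalings, left-out libraries and the replicate block were alternatives. The labels do not say that equal numbers share a mouse. Each library's deviation from its group mean was therefore correlated across genes: equal numbers gave 0.73, 0.73 and 0.84, so they were treated as pairs; unequal numbers gave -0.61 to -0.14, which the centring favours. Libraries of a group differed beyond counting noise (chi-square over degrees of freedom of at least 76.3). Scripts were tested on simulated data. The 9 genes, the lists and the naming rule were chosen with earlier results of these data known. In each of the 5 lists the rule names called genes, or otherwise the 2 with the smallest paired p, plus the 2 with the highest mean; 2 genes of the lists are not reported here. Plots used Python 3.11.15 and matplotlib 3.10.9.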

Additional observations from a re-analysis of the deposited data

How the results depend on the processing

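With the replicate block limma called 92 genes in all against 1 without it, and 0 of the 9 in both. Without the block the count over all genes was 0 with a pseudocount of 0.25 or 5, with no filter on low values, with a mean of at least 10, with quantile normalization, without KO replicates 2 and 3, and by edgeR, and 110 by DESeq2. With the block it was 110 with quantile normalization, 81 with equal totals, 39 by edgeR and 738 by DESeq2, the last including 1 of the 9, Slc1a5. Leaving out 1 library, or 1 pair under the block, gave 0 to 840 genes and 0 to 1 of the 9. The 840 came from the block without pair 1, and the fits of edgeR and DESeq2 without a pair were added after seeing the data. At a mean of at least 10, Gls2 and Slc7a7 gave no value.

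Across the 9 genes 245 of 260 recomputed changes kept direction and side of the threshold, 3 for Slc1a5 passed it and 12 turned sign. Without KO replicates 2 and 3, a fit that ignores the pairs and takes the lone KO library to vary like the WT ones, the log2 change turned to -0.0057 in Glud1, -0.0017 in Glul, -0.081 in Slc38a1, -0.013 in Psat1, 0.036 in Pfas, -0.16 in Slc25a12, -0.13 in Slc25a13, -0.23 in Nfe2l2, 0.034 in Myc and -0.22 in Ctnnb1. With equal totals, with or without the block, it turned to 0.023 in Pfas, 0.019 in Me2 and 0.048 in Bcat1. Bcat1 also turned to 0.0036 with quantile normalization with or without the block, to 0.026 by edgeR and 0.025 by DESeq2 without the block, and to 0.017 by both with it. Leaving out 1 library or pair gave ranges across 0 for Glud1 (-0.020 to 0.114), Glul (-0.075 to 0.088), Got1 (-0.16 to 0.17), Got2 (-0.044 to 0.12), Slc38a1 (-0.095 to 0.096), Bcat1 (-0.20 to 0.16), Asns (-0.55 to 0.10), Pfas (-0.066 to 0.020), Ppat (-0.011 to 0.10), Slc25a13 (-0.043 to 0.78), Me2 (-0.30 to 0.24), Mycn (-2.19 to 0.015), Ctnnb1 (-0.067 to 0.15) and Prdm15 (-0.14 to 0.20). The cause was not tested. Among the 9 genes depth limits Gls2 most, at 168 to 473 reads per library; among the others named, Slc7a7 had as few as 17 and Mycn as few as 12.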
